A study of Mus musculus with 6 samples.

Results

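The genes described here are 10 members of the Notch signalling pathway, chosen by name as the rows Notch1, Notch2, Notch3, Dll1, Dll4, Jag1, Jag2, Rbpj, Hes1 and Lfng of a table of 23402 gene symbols. All 10 passed a filter of a mean of at least 1 FPKM (fragments per kilobase of transcript length and per amount of sequencing) and so stood among the 12695 genes tested. RNA was sequenced from whole terminal ileum, where the small intestine ends, of 6 mice aged 6 weeks. All 6 animals drank water with dextran sodium sulfate (DSS), a sugar polymer that damages the gut lining, and the tissue was taken on day 6. The 3 Cre-positive mice, labelled KO, carried Il17ra fl/fl with Atoh1-cre, and the 3 Cre-negative mice, labelled WT, were littermates with Il17ra fl/fl and no Cre. Il17ra encodes a subunit of the receptor for interleukin-17, and the Atoh1 promoter drives Cre in the secretory lineage of the epithelium (Paneth, goblet and enteroendocrine cells). The floxed alleles and DSS are common to both groups, and no mice without DSS were analysed here. In bulk tissue, fewer cells of a type and less RNA per cell cannot be told apart.

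Notch signalling passes between touching cells. A ligand of the Delta-like (Dll) or Jagged (Jag) family on a cell binds a Notch receptor on its neighbour, the metalloprotease ADAM10 and the gamma-secretase complex then cut the receptor, and the freed intracellular domain joins the DNA-binding protein RBPJ to switch on targets such as Hes1. In the intestinal crypt, HES1 represses Atoh1, so that progenitors receiving the signal take the absorptive fate, while cells presenting Dll1 and Dll4 take the secretory fate. The comparison asks whether loss of IL-17 receptor from Atoh1-lineage cells during DSS exposure went with other levels of this pathway in the ileum.

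RBPJ binds DNA at the core letters TGGGAA. Promoter sequence is shown for Lfng and Rbpj, the members searched that had this core in the 250 bases before a RefSeq transcription start. Windows were found for 9 of the 10 members, 11 windows in all (RefSeq, GRCm38.p6), and both strands were searched. Hes1 had no window in the reference used, so its promoter was not searched. Lfng and Rbpj had matches, so 2 of 9 members did (22.2%), against 24.1% of 27025 genes with windows of the same length. Counted by window, 3 of the 11 had a match (27.3%), against 21.6% of 32851 windows, and the third is a second Rbpj window, chr5:53590236-53590485, which overlaps the one shown. The longer form GTGGGAA, which contains the core, was present in the Lfng window and in 5.42% of all windows. Capitals below mark each TGGGAA or its reverse complement TTCCCA. The Lfng window is chr5:140607091-140607340 and the Rbpj window chr5:53590096-53590345, both on the plus strand.
Lfng: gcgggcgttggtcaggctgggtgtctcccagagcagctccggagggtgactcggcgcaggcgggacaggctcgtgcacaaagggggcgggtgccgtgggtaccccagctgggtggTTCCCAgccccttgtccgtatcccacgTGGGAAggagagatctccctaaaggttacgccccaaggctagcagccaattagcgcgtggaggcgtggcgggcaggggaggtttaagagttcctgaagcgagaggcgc
Rbpj: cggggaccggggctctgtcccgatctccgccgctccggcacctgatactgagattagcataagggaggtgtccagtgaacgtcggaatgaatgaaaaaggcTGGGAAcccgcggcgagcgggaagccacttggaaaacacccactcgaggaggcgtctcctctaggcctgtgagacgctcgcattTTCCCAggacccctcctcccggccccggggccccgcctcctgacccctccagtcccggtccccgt
In Lfng the matches began 135 bases (minus strand) and 108 bases (plus strand) before the start site. In Rbpj they began 149 bases (plus strand) and 65 bases (minus strand) before it. These letters are a description of the sequence, and binding was not measured. The GC content of the Lfng window was 66.0%, that of the Rbpj window 65.2%, and the median over all windows 52.4%.

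Several properties of the libraries bear on the values. The spacing of the smallest values gave an estimate of 7880000 to 9180000 fragments per library. Il17ra, the floxed gene, stood at 7.93, 8.36 and 6.07 FPKM in the Cre-positive libraries and at 6.04, 5.91 and 6.53 FPKM in the Cre-negative libraries. Its value covers all exons and all cell types of the tissue, so it did not check the genotype labels. B cell markers stood apart in the libraries Cre-positive 1 and 2. Their summed level over 8 genes was 69.5, 83.8 and 10.7 FPKM in Cre-positive 1, 2 and 3, against 15.7, 11.9 and 6.73 FPKM in Cre-negative 1, 2 and 3. Follicular dendritic cell markers (5 of 6 found) summed to 77.4, 63.3 and 6.15 FPKM in Cre-positive ilea. In Cre-negative ilea they summed to 11.1, 7.56 and 10.75 FPKM. This list shares Cr2 and Fcer2a with the B cell list, so the sums are not separate measures, and Clu was its top gene. Sex was also unbalanced, with Xist RNA in Cre-positive 2 and 3 and Cre-negative 3 (148 to 177 FPKM), and the Y-linked gene Ddx3y in Cre-positive 1 and Cre-negative 1 and 2 (14.5 to 15.3 FPKM). Epithelial markers of the ileum were present in all 6 libraries, with 0 of 6 enterocyte, 0 of 7 goblet cell and 0 of 6 Paneth cell markers at 0 in any library.

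None of the 10 Notch genes passed the test between Cre-positive and Cre-negative ilea, and neither did any other gene. With limma's moderated test on log2(FPKM + 1), no call was made at the adjusted threshold of 0.05 (0 of 12695 genes, 0%). Without adjustment, p was under 0.05 for 459 genes (3.62%). Of the 10 members, 9 had an estimate above 0, with 6 doing so under quantile normalization and 6 without Cre-positive 2, while 58.4% of all genes tested were above 0. The median log2 fold change of the members was 0.16, against 0.03 over all genes tested. The estimates lay between -0.16 (Dll4) and 0.33 (Lfng), and the adjusted p was 0.998 for each of the 10. Lfng was the member with an unadjusted p under 0.05 and also the member whose groups did not overlap, 1 of 10 against 8.37% of all genes. Seen by library, Cre-positive 2 held the highest value of 8 members and Cre-negative 3 the lowest value of 5.

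**Figure D1:**
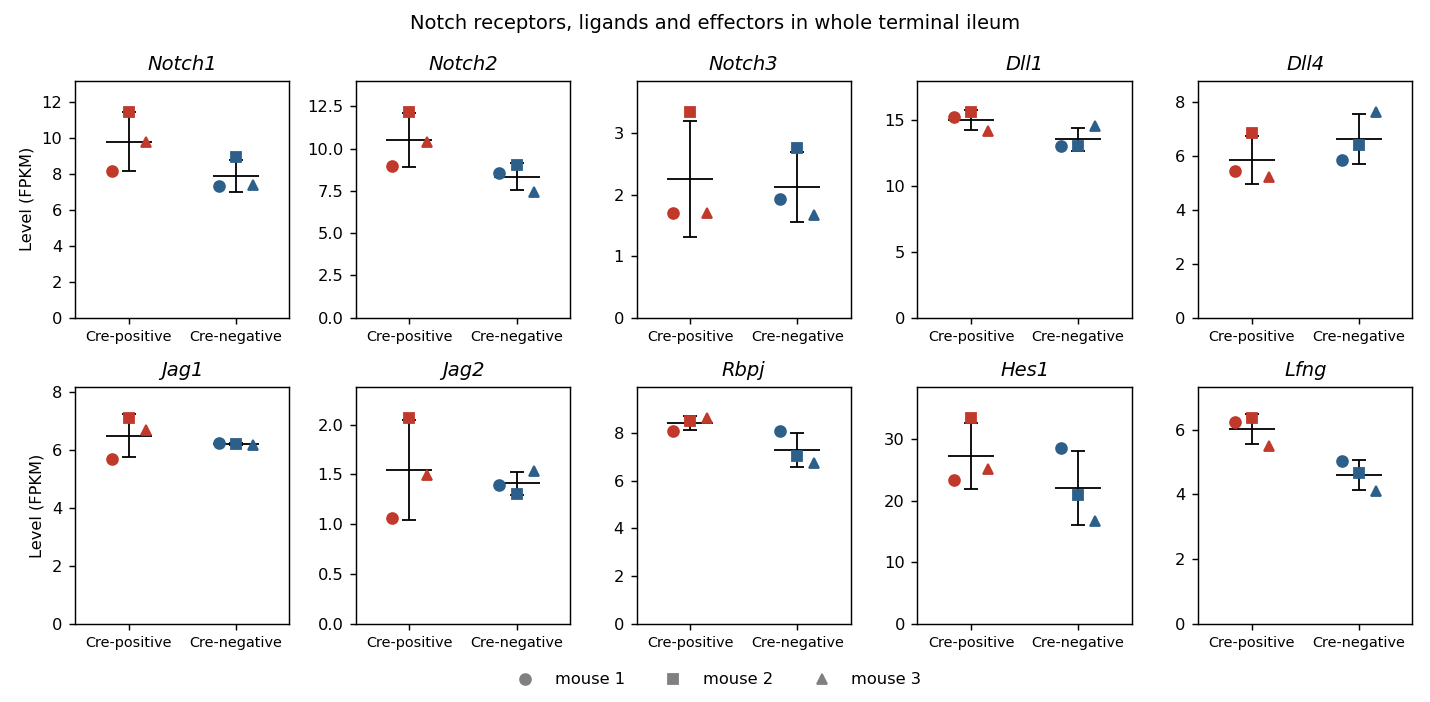
Level of each of the 10 Notch genes (y axis, FPKM, from 0) in the 3 Cre-positive and 3 Cre-negative libraries. Each symbol is a mouse, and the bar and whiskers are the group mean and SD. Lfng is the gene whose Cre-positive values (5.50 to 6.36) all lie above the Cre-negative values (4.12 to 5.05), and Cre-positive 2 (square) is the highest library for 8 genes.

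The levels of the members, which FPKM makes comparable per transcript length, lay in nearly the same order in both genotypes. Hes1, a transcriptional repressor, was the most abundant (27.4 ± 5.38 FPKM in Cre-positive and 22.1 ± 6.02 FPKM in Cre-negative ilea; SD, n = 3 each). Dll1 came next in both groups, with a range that did not meet that of Hes1 or of Notch2 below it. Notch2 and Notch1 followed, and their ranges overlapped in both groups. Rbpj stood below Notch1, within overlapping ranges. Jag1, Lfng and Dll4 formed a middle tier in Cre-positive ilea, with means of 6.50, 6.03 and 5.83 FPKM and overlapping neighbours. In Cre-negative ilea the tier ran Dll4 (6.62), Jag1 (6.20) and Lfng (4.61), and Lfng lay outside the range of Jag1. Notch3 and Jag2 were the lowest in both groups, at 2.25 and 1.54 FPKM in Cre-positive ilea and 2.12 and 1.41 FPKM in Cre-negative ilea. An estimated 49 to 88 fragments per library lay behind Jag2, 81 to 128 behind Lfng and 668 to 1065 behind Notch2, so the counting error of the lowest Lfng value was about 11.1%.

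Notch1 and Notch2, the receptors of the crypt epithelium, were both somewhat higher on average in Cre-positive ilea, within overlapping ranges. Notch1 (chromosome 2, 26457903 to 26516663, GRCm38) stood at 8.14, 11.4 and 9.79 FPKM in Cre-positive ilea and at 7.30, 8.92 and 7.39 FPKM in Cre-negative ilea. Cre-positive 2 and 3 were above all Cre-negative libraries, and Cre-positive 1 was below Cre-negative 2. The difference was 0.28 on the log2 scale (SE 0.14, limma adjusted p = 0.998, exact two-sided permutation p = 0.2, where 0.1 is the smallest value for 3 against 3 mice). Notch2 (chromosome 3, 98013527 to 98150361) stood at 8.98, 12.2 and 10.4 FPKM in Cre-positive ilea and at 8.53, 9.02 and 7.46 FPKM in Cre-negative ilea. Again Cre-positive 2 and 3 lay above every Cre-negative library, with Cre-positive 1 just under Cre-negative 2. On the log2 scale it differed by 0.30 (SE 0.13, limma adjusted p = 0.998, exact permutation p = 0.2). Without Cre-positive 2 the log2 fold changes were 0.17 for Notch1 and 0.20 for Notch2. The receptors moved together from mouse to mouse, with a ratio of Notch1 to Notch2 between 0.856 and 0.991 in the 6 libraries.

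The difference in both receptors was larger among libraries with Xist RNA, but in each sex a genotype was represented by a single mouse. Variation between single mice cannot be told from sex here. Among libraries with Xist RNA, Notch1 averaged 10.6 FPKM in the 2 Cre-positive ilea and stood at 7.39 FPKM in the single Cre-negative ileum, and Notch2 averaged 11.3 FPKM in those Cre-positive ilea against 7.46 FPKM in the Cre-negative one. Among libraries with Y-linked RNA, Notch1 stood at 8.14 FPKM in the single Cre-positive ileum and averaged 8.11 FPKM in the 2 Cre-negative ilea, and Notch2 stood at 8.98 FPKM in the Cre-positive one against 8.78 FPKM in the Cre-negative ones. With a sex term the log2 fold changes were 0.24 for Notch1 and 0.28 for Notch2, each with a limma adjusted p of 0.999. No sex by genotype difference was tested, and the part of sex in the result was not tested.

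Notch3, a receptor of vascular smooth muscle and pericytes, had no steady direction. It lies on chromosome 17 from 32120820 to 32166852, and its level was 1.70, 3.35 and 1.71 FPKM in Cre-positive ilea and 1.93, 2.76 and 1.67 FPKM in Cre-negative ilea. A single library of each group, Cre-positive 2 and Cre-negative 2, was high, and the other four lay together. The log2 fold change of 0.04 (SE 0.22) turned to -0.19 without Cre-positive 2 and to -0.04 under quantile normalization. Blood endothelium markers (8 of 8 found, none at 0) summed to 52.0, 82.25 and 47.1 FPKM in Cre-positive ilea and to 56.6, 59.3 and 48.15 FPKM in Cre-negative ilea, highest in Cre-positive 2 as well. Smooth muscle and pericyte markers summed to 612, 525 and 577 FPKM in Cre-positive ilea and to 756, 605 and 559.5 FPKM in Cre-negative ilea. Acta2 was the top gene of this sum, which covers all smooth muscle of the tissue and not vessels alone. The part of vessel content in the Notch3 values was not tested. As a share of the summed receptor FPKM, Notch3 made up 9.75 ± 2.38% in Cre-positive and 11.4 ± 1.70% in Cre-negative ilea (SD, n = 3 each).

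Dll1, which secretory progenitors present to their neighbours, was the main ligand. It lies on chromosome 17 from 15367354 to 15376872 and stood at 15.3, 15.6 and 14.2 FPKM in Cre-positive ilea and at 13.0, 13.0 and 14.6 FPKM in Cre-negative ilea. Cre-positive 3 was below Cre-negative 3, and the groups overlapped there (log2 fold change 0.14, SE 0.09, limma adjusted p = 0.998, exact permutation p = 0.2). Dll4, the other epithelial Delta-like ligand and also a ligand of endothelial tip cells, was the member with a negative estimate. It lies on chromosome 2 from 119325784 to 119335962, and its level was 5.44, 6.86 and 5.20 FPKM in Cre-positive ilea and 5.83, 6.40 and 7.63 FPKM in Cre-negative ilea. Cre-positive 1 and 3 lay below every Cre-negative library and Cre-positive 2 lay among them. On the log2 scale Dll4 differed by -0.16 (SE 0.14, limma adjusted p = 0.998, exact permutation p = 0.4). Within sex it differed by -0.31 among libraries with Xist RNA (2 Cre-positive, 1 Cre-negative) and by -0.14 among those with Y-linked RNA (1 Cre-positive, 2 Cre-negative). The size of the Dll4 estimate rested on single libraries, at -0.26 without Cre-positive 2, -0.092 without Cre-positive 3 and -0.066 without Cre-negative 3. It was -0.022 with array weights, -0.061 with equal-sum scaling and -0.10 with a pseudocount of 5.

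Jag1, a ligand of the vessel wall and of mesenchyme that is also expressed in crypts, differed little among Cre-negative ilea. The gene lies on chromosome 2 from 137081456 to 137116644, and its values were 5.69, 7.10 and 6.70 FPKM in Cre-positive ilea and 6.22, 6.20 and 6.17 FPKM in Cre-negative ilea. The Cre-negative libraries differed by less than 0.1 FPKM, and the Cre-positive libraries surrounded them on both sides. Jag2, on chromosome 12 from 112907819 to 112929776, stood at 1.07, 2.07 and 1.49 FPKM in Cre-positive ilea and at 1.39, 1.30 and 1.54 FPKM in Cre-negative ilea, the Cre-positive libraries again holding both the lowest and the highest value. The log2 fold changes were 0.05 for Jag1 (SE 0.11) and 0.06 for Jag2 (SE 0.17), and both turned negative without Cre-positive 2 and under quantile normalization.

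The ratio between the Delta-like ligands did not overlap between the genotypes, although each single ligand did. Dll4 made up 19.8%, 21.6% and 18.8% of the summed ligand FPKM in Cre-positive ilea and 22.0%, 23.8% and 25.5% in Cre-negative ilea. Dll1 made up 55.6%, 49.4% and 51.5% in Cre-positive ilea and 49.25%, 48.4% and 48.7% in Cre-negative ilea. The ratio of Dll1 to Dll4 was 2.80, 2.28 and 2.73 in Cre-positive ilea and 2.24, 2.04 and 1.91 in Cre-negative ilea, so every Cre-positive library was above every Cre-negative one. The gap between Cre-positive 2 and Cre-negative 1 was narrow. Of the 45 ratios between members, 7 (15.6%) did not overlap between the groups, against 9.18% of the 80068185 ratios between 12655 genes tested that were above 0 in every library. Those 7 share members, each holding Dll4, Lfng or the pair Notch2 and Jag1, and they were examined after the values were seen. The summed ligand FPKM was 28.9 ± 2.40 in Cre-positive and 27.8 ± 1.85 in Cre-negative ilea, and the summed receptor FPKM was 22.6 ± 4.11 in Cre-positive and 18.3 ± 2.15 in Cre-negative ilea (SD, n = 3 each).

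**Figure D2:**
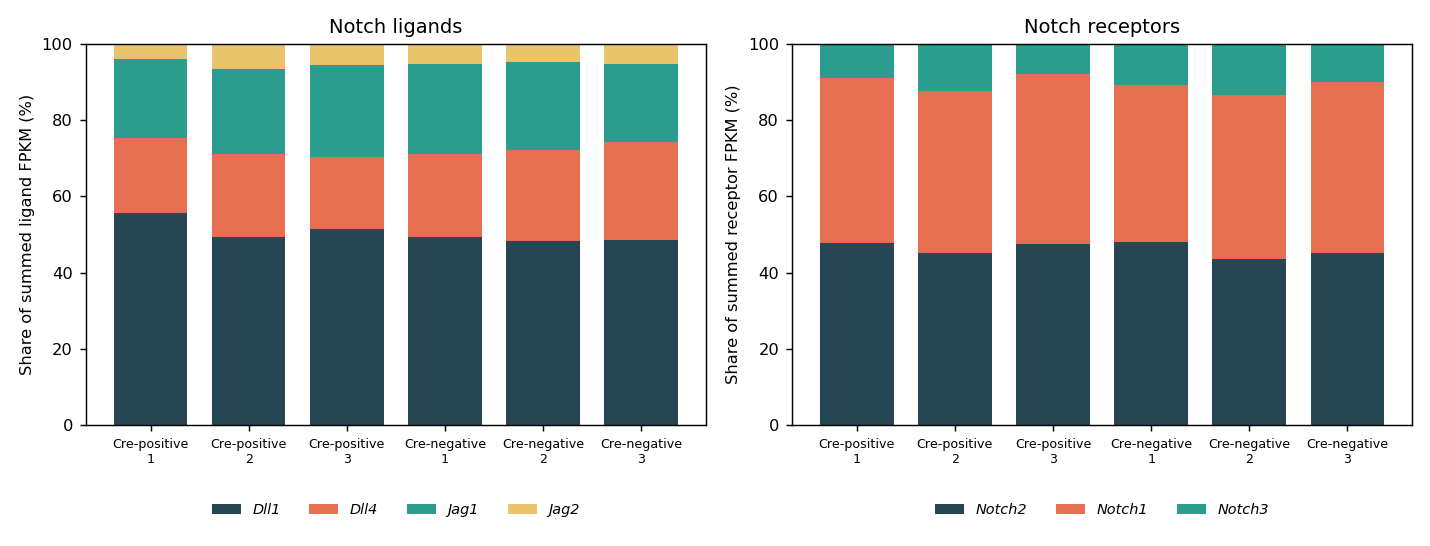
Share of the summed ligand FPKM (left, %) and of the summed receptor FPKM (right, %) held by each gene in the 3 Cre-positive and 3 Cre-negative libraries. Dll4 takes 18.8% to 21.6% of the ligand sum in Cre-positive and 22.0% to 25.5% in Cre-negative libraries, while Notch1 and Notch2 hold similar shares of the receptor sum in all 6.

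Lfng, a glycosyltransferase that extends O-fucose on Notch receptors and favours their activation by Delta-like over Jagged ligands, had values that did not overlap between the groups. It lies on chromosome 5 from 140607320 to 140615545 (GRCm38). Its level was 6.24, 6.36 and 5.50 FPKM in Cre-positive ilea and 5.05, 4.66 and 4.12 FPKM in Cre-negative ilea. All 3 Cre-positive values were above all 3 Cre-negative values, as for 5.77% of genes tested. It averaged 6.03 ± 0.469 FPKM in Cre-positive and 4.61 ± 0.468 FPKM in Cre-negative ilea (SD, n = 3 each), a ratio of 1.31. Its log2 fold change was 0.33 with an SE of 0.12 and a 95% interval of 0.06 to 0.59 (limma unadjusted p = 0.0223, adjusted p = 0.998). By exact permutation, two-sided, p was 0.1, which is as low as 3 against 3 mice can go. It did not pass the test over all genes. Among libraries with Xist RNA, Lfng averaged 5.93 FPKM in the 2 Cre-positive ilea and stood at 4.12 FPKM in the single Cre-negative ileum. Among those with Y-linked RNA, Lfng stood at 6.24 FPKM in the single Cre-positive ileum and averaged 4.86 FPKM in the 2 Cre-negative ilea.

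The Cre-positive libraries with the highest Lfng, 1 and 2, were those with high B cell markers. Among Cre-negative ilea, Lfng (5.05, 4.66 and 4.12 FPKM) had the same order as the B cell marker sums (15.7, 11.9 and 6.73 FPKM). Cre-positive 3, whose B cell marker sum of 10.7 FPKM lay inside the Cre-negative range, had 5.50 FPKM of Lfng, above the highest Cre-negative value of 5.05 FPKM. With the Cre-positive group reduced to this library, the log2 fold change was 0.21. A lone mouse cannot tell genotype from B cell content. All 8 B cell markers had estimates above 0, with 2 of them at 0 in at least 1 library. The part of B cell content in the Lfng values was not tested. The genes tested whose log2 levels were most like those of Lfng over the 6 libraries were Cd180, Il2rg and Rassf5 (Pearson r 0.991, 0.989 and 0.988, as a description). Cd180, a receptor-like protein of B cells and myeloid cells, stood at 5.10, 5.59 and 2.54 FPKM in Cre-positive ilea and at 2.16, 1.29 and 0.778 FPKM in Cre-negative ilea. Il2rg, the shared chain of several lymphocyte cytokine receptors, stood at 12.3, 14.3 and 9.66 FPKM in Cre-positive ilea. In Cre-negative ilea it stood at 8.87, 7.79 and 5.90 FPKM. For Cd180 and Il2rg, as for Lfng, Cre-positive 3 was above every Cre-negative library. Both genes were picked by their likeness to Lfng over these same 6 libraries, so a shared order follows from that choice.

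Rbpj, the DNA-binding partner of the cut receptor, varied little among Cre-positive ilea. It lies on chromosome 5 from 53466152 to 53657362 (GRCm38). The values were 8.07, 8.53 and 8.63 FPKM in Cre-positive ilea and 8.11, 7.03 and 6.73 FPKM in Cre-negative ilea. Cre-negative 1 was level with Cre-positive 1, and the other Cre-negative libraries were lower than all Cre-positive ones (log2 fold change 0.19, SE 0.10, limma adjusted p = 0.998, exact permutation p = 0.2). Without Cre-negative 1 the log2 fold change was 0.26, and without Cre-negative 3 it was 0.14.

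Hes1, the direct target that represses Atoh1, spread widely within both genotypes. It lies on chromosome 16 from 30064384 to 30067796 and stood at 23.4, 33.5 and 25.3 FPKM in Cre-positive ilea and at 28.6, 20.9 and 16.7 FPKM in Cre-negative ilea. Cre-negative 1 exceeded both Cre-positive 1 and Cre-positive 3 (log2 fold change 0.31, SE 0.21, limma adjusted p = 0.998, exact permutation p = 0.4). The log2 fold change was 0.14 without Cre-negative 3, 0.17 without Cre-positive 2, 0.51 without Cre-negative 1 and 0.49 with array weights. Within sex it was 0.77 among libraries with Xist RNA (2 Cre-positive, 1 Cre-negative) and -0.06 among those with Y-linked RNA (1 Cre-positive, 2 Cre-negative). Crypt stem cell markers (6 of 6 found, none at 0) summed to 285, 514 and 548.5 FPKM in Cre-positive ilea and to 635, 507 and 367 FPKM in Cre-negative ilea. Olfm4 was the top gene of this sum, and 4 of the 6 markers had estimates above 0. The Cre-negative order of the sum was that of Hes1. Among Cre-positive ilea, Cre-positive 2, the highest for Hes1, was not the highest for this sum. The part of crypt content in the Hes1 values was not tested.

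**Figure D3:**
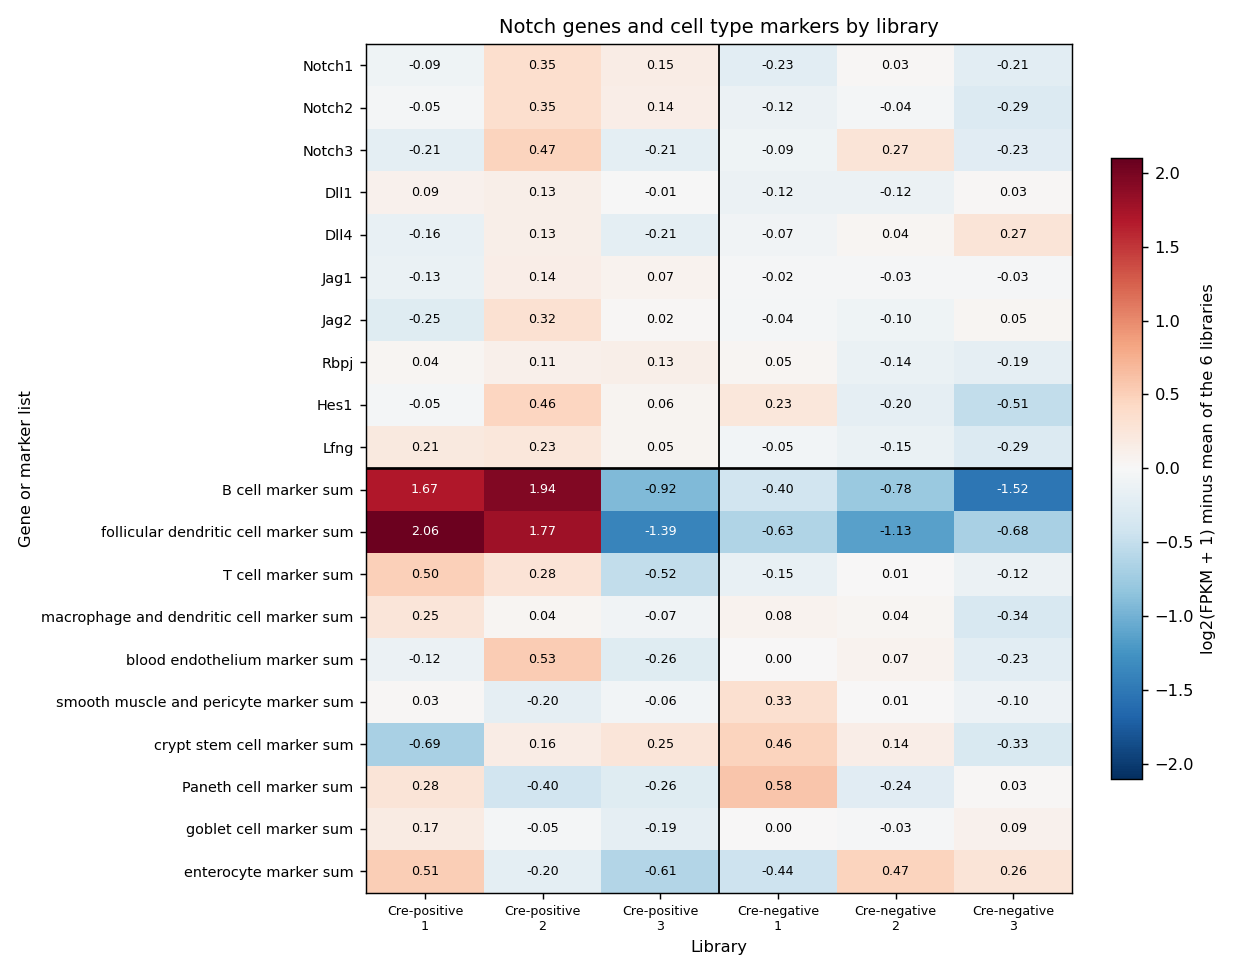
Difference of each library from the mean of the 6 libraries (colour and printed number, log2(FPKM + 1)) for the 10 Notch genes, above the line, and for summed marker lists of 10 cell types below it, with Cre-positive libraries left of Cre-negative ones. Cre-positive 2 is above the mean for all 10 Notch genes (0.11 to 0.47), whereas B cell markers are high in both Cre-positive 1 (1.67) and Cre-positive 2 (1.94).

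Transcription factors of the secretory lineage, which HES1 opposes in progenitors, did not pass the test in either direction. Of 7 factors tested, 4 had estimates above 0 and 3 below (median log2 fold change 0.09), and the groups overlapped for all 7. Atoh1 stood at 11.5, 9.43 and 10.1 FPKM in Cre-positive ilea and at 10.02, 8.21 and 10.6 FPKM in Cre-negative ilea, with overlapping ranges (log2 fold change 0.10). Spdef, a factor of goblet and Paneth cell maturation, averaged 10.1 ± 0.928 FPKM in Cre-positive and 8.85 ± 1.28 FPKM in Cre-negative ilea, and Gfi1, which acts below Atoh1, averaged 2.25 ± 0.349 FPKM in Cre-positive and 2.44 ± 0.458 FPKM in Cre-negative ilea (SD, n = 3 each). Neurog3, which starts the enteroendocrine fate, averaged 1.60 ± 0.710 FPKM in Cre-positive and 1.39 ± 0.456 FPKM in Cre-negative ilea (SD, n = 3 each). Neurod1, which follows it, averaged 2.05 ± 0.273 FPKM in Cre-positive and 1.88 ± 0.489 FPKM in Cre-negative ilea (SD, n = 3 each). Foxa3 (log2 fold change -0.02) and Klf4 (-0.34) completed the list, and Klf4 spread from 23.2 to 56.0 FPKM among Cre-positive ilea and from 28.0 to 65.9 FPKM among Cre-negative ilea.

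The other genes of the pathway described here formed a list of 38, of which 30 passed the filter and the other 8 had means between 0.0217 and 0.891 FPKM. Of the 30, 22 had estimates above 0 and 8 below, 73.3% against 58.4% of all genes tested, and 0 passed the adjusted threshold. Their median log2 fold change was 0.06. The groups did not overlap for 1 of them (3.33%, against 8.37% of all genes), which was higher in Cre-positive ilea. Dtx3, a ubiquitin ligase of the Deltex family, stood at 7.90, 8.58 and 8.42 FPKM in Cre-positive ilea and at 7.62, 7.71 and 5.38 FPKM in Cre-negative ilea (log2 fold change 0.25, limma adjusted p = 0.998). Cre-negative 3 was the library that set the size of the Dtx3 difference, since the other 2 lay within 0.3 FPKM of Cre-positive 1.

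By role, grouped after the values were seen, the 3 most abundant genes of the list act in cutting the receptor. Of 7 such genes tested, 3 had estimates above 0 and 4 below, between -0.10 and 0.11. Psenen, a gamma-secretase subunit, averaged 57.0 ± 2.05 FPKM in Cre-positive and 59.3 ± 3.86 FPKM in Cre-negative ilea (SD, n = 3 each). Ncstn, another subunit, averaged 54.8 ± 3.73 FPKM in Cre-positive and 56.1 ± 2.71 FPKM in Cre-negative ilea (SD, n = 3 each). Adam10, the surface protease that cuts first, averaged 48.6 ± 2.03 FPKM in Cre-positive and 50.7 ± 3.10 FPKM in Cre-negative ilea (SD, n = 3 each). All 5 genes of receptor glycosylation and maturation had estimates above 0, as did 58.4% of all genes tested. The median of the 5 was 0.12, and none of them had an unadjusted limma p under 0.05. Furin, the protease that matures the receptors on their way to the surface, averaged 29.2 ± 5.32 FPKM in Cre-positive and 28.5 ± 1.82 FPKM in Cre-negative ilea (SD, n = 3 each). Of 5 RBPJ cofactors, 4 were above 0 (median 0.06). Of 9 genes of endocytosis and ubiquitin ligation, 6 were above 0 (median 0.04). Numb, which sends receptor to degradation, averaged 30.1 ± 3.47 FPKM in Cre-positive and 30.7 ± 2.51 FPKM in Cre-negative ilea, and the ubiquitin ligase gene Itch 38.5 ± 2.82 FPKM in Cre-positive and 38.7 ± 0.783 FPKM in Cre-negative ilea (SD, n = 3 each). The 3 tested genes of the HES, HEY and NRARP group had estimates between 0.05 and 0.09. Among them, and named after the values were seen, the target Nrarp stood at 8.68, 12.6 and 13.2 FPKM in Cre-positive ilea and at 12.0, 9.14 and 10.8 FPKM in Cre-negative ilea, with overlapping ranges.

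**Figure D4:**
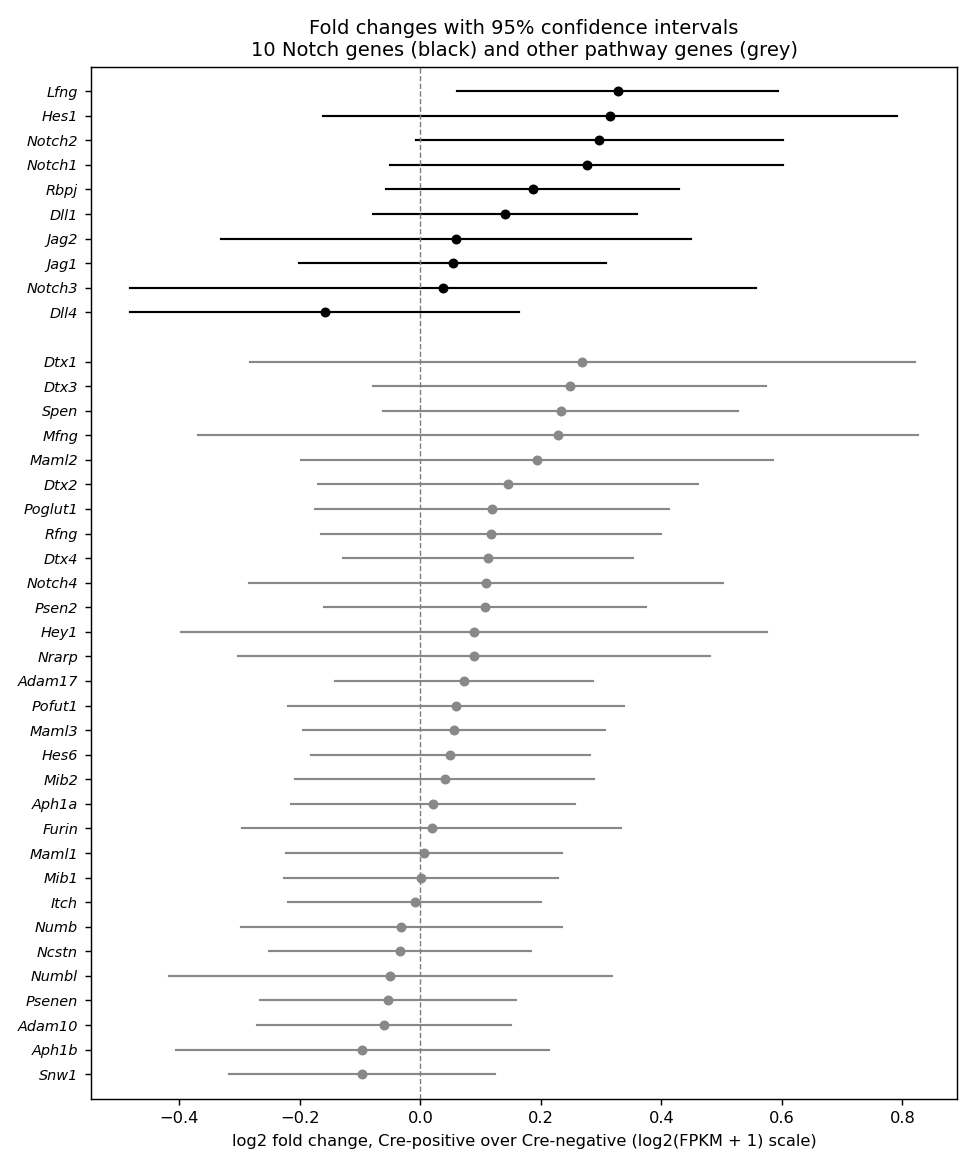
Log2 fold change, Cre-positive over Cre-negative (x axis, log2(FPKM + 1) scale), with limma's 95% confidence interval, for the 10 Notch genes (black) and the 30 other pathway genes tested (grey), each group sorted by size. Lfng (0.33) is the gene drawn here whose interval lies above 0, without adjustment for the number of genes tested, and Dll4 (-0.16) has the lowest estimate drawn.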

How the data were processed

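RNA-seq of whole terminal ileum was analysed for 3 Cre-positive and 3 Cre-negative mice, grouped by the sample titles. The authors deposited a table of FPKM values, 1 column per library. Per the submitters' processing notes, the tools included STAR, Cufflinks and Cuffnorm, besides FastQC, Trimmomatic, SAMtools and bedtools, with the builds GRCm38 and mm10. The sources used here do not give versions, annotation, scaling between libraries, treatment of multi-mapping fragments or whether counting used strand. Libraries were directional (NEBNext Ultra II), per the labels' protocols.

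Because FPKM are no counts, count models were not used. Genes whose mean was 1 FPKM or more (12695) were tested on log2(FPKM + 1), which understates changes of low genes, with limma 3.58.1 in R 4.3.3 (intensity trend, two-sided, Benjamini-Hochberg adjustment over all genes, threshold 0.05). The code was tested on simulated data. Single values were compared by exact permutation (scipy 1.17.1). Depth was estimated from 110 genes with a single transcript whose lowest value recurred across libraries. When low values were divided by those of Cre-negative 1, 51.7% to 55.9% of the quotients lay within 0.02 (log2) of a quotient of whole numbers no larger than 6. Fragments behind a gene use its longest GENCODE M21 transcript, and are approximate. Libraries correlated between 0.966 and 0.982 (Spearman's rho across genes tested, which are not independent), so no pair stood out as a duplicate. Coordinates are from GENCODE M21 (GRCm38).

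The members and gene lists were chosen with earlier results of these data known, and the grouping of pathway genes by role was made after the values were seen. Named genes were all members, Il17ra, Atoh1, pathway genes whose groups did not overlap and the 6 most abundant others, all secretory factors, and the 3 genes most like the member with the smallest p. Outside this rule, Nrarp, Dtx1, Mfng and Notch4 were named after their values were seen, and Xist and Ddx3y as markers of sex. Marker lists whose levels are not given in the results (enterocyte, Paneth cell, goblet cell, lymphatic endothelium, fibroblast, T cell, macrophage and dendritic cell, tuft cell, enteric neuron and glia, housekeeping) overlapped between the groups in summed level, while enteroendocrine markers summed to 109 to 116 FPKM in Cre-positive and 121 to 133 FPKM in Cre-negative ilea. Alternatives were other pseudocounts (0.1 and 5), filters (none and 5 FPKM) and scalings, array weights, a replicate block and leaving out libraries. A sex term was added after the data were seen. Some genes of the wider pathway are not reported here.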

Additional observations from a re-analysis of the deposited data

How the results depend on the processing

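Across 17 alternatives none of the 10 Notch genes reached an adjusted p of 0.05 (lowest 0.0909, Lfng with array weights), and Notch1, Notch2, Dll1, Dll4, Rbpj, Hes1 and Lfng kept their direction in all of them (Lfng between 0.20 and 0.42). With 1 library left out, Notch1 ranged from 0.17 to 0.39, Notch2 from 0.20 to 0.40, Dll4 from -0.26 to -0.066 and Hes1 from 0.14 to 0.51. Equal-sum scaling moved Dll1 to 0.25 and Rbpj to 0.29, and without Cre-positive 1 and 2 together Dll1 was at 0.065 and Dll4 at -0.29. Of 168 gene values, 10 turned sign, all in Notch3, Jag1 or Jag2. Under quantile normalization the log2 fold changes were -0.036 for Notch3, -0.010 for Jag1 and -0.013 for Jag2. With 1 library left out, Notch3 ranged from -0.19 to 0.18, Jag1 from -0.0045 to 0.13 and Jag2 from -0.085 to 0.20. Without Cre-positive 1 and 2 together Notch3 was at -0.19, and with the sex term Jag2 was at -0.030. The median of the members stayed between 0.12 and 0.27. Equal-sum scaling shifted the median of all genes to 0.13 and that of the other pathway genes to 0.16, from 0.06. The number of all genes past the threshold, 0 here, was 2 with a pseudocount of 0.1, 2 with a pseudocount of 5, 2 with equal-sum scaling, 24 with array weights, 1 with the replicate block, 4 without Cre-positive 1 and 2, and 0 to 46 with 1 library left out (46 without Cre-positive 3). Replicate numbers are not said to pair mice, and deviations of same-numbered mice correlated at -0.13, 0.03 and -0.11, so the block is an alternative only. With it, 0 Notch genes passed. Notch3 and Jag2 fell under the filter of 5 FPKM and have no value there. The causes of these changes were not tested. Depth limits Jag2 and Lfng most among the members.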

Other observations

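Dtx1, a Deltex gene that Notch2 induces in B cells, stood at 4.67, 5.04 and 2.21 FPKM in Cre-positive ilea and at 3.35, 2.99 and 2.63 FPKM in Cre-negative ilea. Cre-positive 1 and 2 were the highest, and Cre-positive 3 was the lowest of all 6. Mfng, a fringe glycosyltransferase like Lfng, stood at 2.75, 3.05 and 1.23 FPKM in Cre-positive ilea and at 1.58, 2.52 and 1.32 FPKM in Cre-negative ilea, with the same libraries at the top and bottom. Among Cre-negative ilea, Dtx1 had the same order as the B cell marker sums (15.7, 11.9 and 6.73 FPKM). Mfng did not have that order, with more in Cre-negative 2 than in Cre-negative 1. Cre-positive 3 (sum 10.7 FPKM) had less of both genes than Cre-negative 3 (sum 6.73 FPKM). For Mfng the gap between Cre-positive 3 and Cre-negative 3 was narrow (1.23 against 1.32 FPKM). Lfng differed from Dtx1 and Mfng in that Cre-positive 3 (5.50 FPKM) stayed above every Cre-negative library. The part of B cell content in the levels of these genes was not tested. Dtx1 and Mfng were picked after their values were seen, and neither passed the test (log2 fold changes 0.27 and 0.23, limma adjusted p = 0.998 for each).

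Notch4, the endothelial receptor, stood at 1.66, 2.98 and 2.52 FPKM in Cre-positive ilea and at 1.97, 2.36 and 1.98 FPKM in Cre-negative ilea, and is named here after its values were seen. Cre-positive 2 was highest for Notch4 and for the blood endothelium marker sum (82.25 FPKM), whereas Cre-positive 3 was next for Notch4 and lowest of all 6 for that sum (47.1 FPKM). The Notch4 log2 fold change of 0.11 was smaller than its SE of 0.17.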
